A study of Mus musculus with 20 samples.

Results

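The extracellular matrix and collagen genes of the proximal colon (PC) were followed over 4 diets. The members were the protein-coding genes of the count table that encode collagen chains, laminin chains, nidogens, fibronectin, elastic fibre proteins, small leucine-rich proteoglycans, matricellular proteins, or tissue inhibitors of metalloproteinases. They were chosen by symbol and not by their measured values, although earlier results of these data were known. The table held 12701 genes and 54 of them were members. Of the 77 mouse genes that fit the rule, the other 23 are not analysed here. All 54 members were tested, and their mean levels ran from 30.4 normalised counts (counts divided by the size factor of the library) for Timp1 to 8311 for Col3a1.

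The mice were C57BL/6, an inbred strain, and all groups ate the same base diet. After weaning they received the Total Western Diet (TWD), a rodent feed that mirrors American nutrient intake, for 6 weeks. They then received the TWD with 0, 2, 5, or 10% raw potato starch (RPS), a starch resistant to digestion, for 3 weeks. Each diet had 5 libraries, and the 0% RPS diet served as the control. The RNA came from a short piece of whole tissue just below the cecum, so epithelium, connective tissue, and muscle were sequenced together and each result is a tissue average.

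Connective tissue cells and smooth muscle cells of the gut wall secrete most of the matrix. Fibrillar collagens (types I, III, and V) form the load-bearing fibres of the submucosa, and proteoglycans such as decorin and lumican coat these fibres and regulate their width. Basement membranes are sheets of type IV collagen, laminins, and nidogens on which the epithelium, the vessels, and each muscle cell rest. Elastic fibres and matricellular proteins complete the scaffold, and metalloproteinase inhibitors slow its breakdown.

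One control library stood apart for the matrix genes. Replicate 2 of the 0% RPS diet held more than the mean of the other 4 control libraries for 48 of the 54 members, with a median ratio of 1.68 and a range of 0.649 to 2.87. It was the highest of all 20 libraries for 41 members (75.9%), against 13.9% of the 12348 genes whose mean reached 10, and the median ratio of those genes was 1. The members took 0.685% of its counts, compared with 0.319 to 0.442% in the other control libraries, 0.28 to 0.443% at 2% RPS, 0.308 to 0.387% at 5% RPS, and 0.307 to 0.453% at 10% RPS. Apart from this library the 4 diets overlapped in the matrix share. Each comparison with the 0% RPS diet was also made without it. This omission was set together with the member list, which was chosen with earlier results of these data known. It is therefore not an independent check. For the 48 members above, leaving out this library lowers the control mean by construction.

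Markers of other cells moved in the same library. Its summed smooth muscle markers (9 of 10 measured, none at 0) stood at 300213 normalised counts, against 136651 to 199764 in the other control libraries and 124649 to 263430 in the starch libraries. Fibroblast markers (8 of 10 measured) were 1.20 times, endothelial markers (8 of 8) 1.29 times, and epithelial markers (10 of 10) 1.07 times the mean of the other control libraries. The ratio was 2.06 for macrophage markers (7 of 7), 2.21 for adipocyte markers (4 of 5), 1.27 for interstitial cells of Cajal (2 of 2), 1.04 for lymphatic endothelium (4 of 4), and 0.948 for enteric glia and neurons (8 of 8). It was 4.58 for lymphocyte and plasma cell markers (3 of 7), 1.24 for the only mesothelial marker measured of 5, and 3.14 for Hox genes of the distal hindgut (6 of 10). The part of these markers in the matrix levels was not tested beyond the smooth muscle covariate described with Col23a1 and other single genes below. Total counts per library ran from 20581013 to 35083751 and the total of this library (25237543) lay within the range of its partners (24160095 to 32871160).

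**Figure D1:**
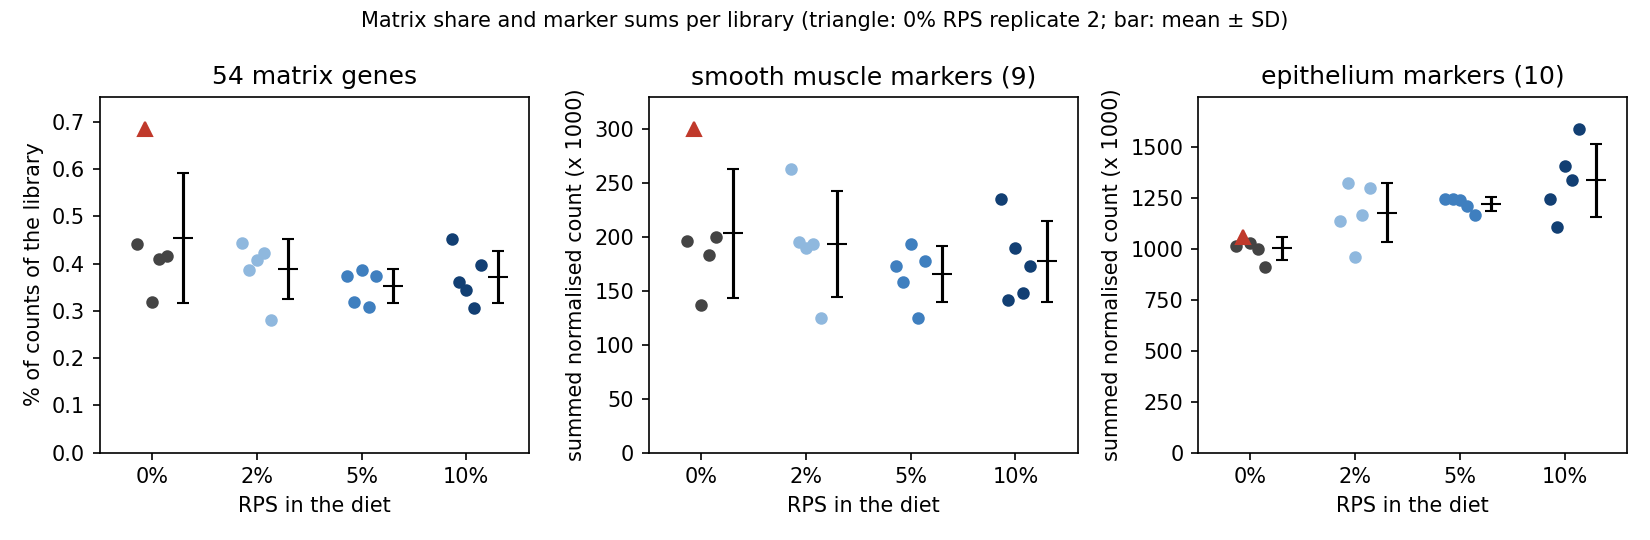
Share of each library's counts taken by the 54 matrix genes (%), and summed normalised counts (in units of 1000) of 9 smooth muscle and 10 epithelium markers, per library and diet, with mean ± SD (n = 5). The triangle, 0% RPS replicate 2, sits at 0.685% and above the other 19 libraries in the matrix and smooth muscle panels. The epithelium sum, of which Muc2 is a large part, lies higher at 10% RPS (1110294 to 1590492) than at 0% RPS (912880 to 1061067).

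The excess in 0% RPS replicate 2 differed between the roles of the genes. It was large for the fibrillar collagens, where Col3a1 reached 19719 normalised counts and its 4 partners 5664 to 8777 (ratio 2.57), and Col1a1 (2.50), Col5a1 (2.53), and Col1a2 (2.24) were alike. The fibrillar collagens Col5a3 and Col27a1 were lower in this respect, with ratios of 1.56 and 1.28. Among elastic fibre genes the ratio was 2.72 for Fbln1, 2.31 for Eln (elastin), and 2.25 for Fbln5, but 1.32 for Fbln2. In contrast, Lamb3 and Lama3, laminin chains of the epithelial basement membrane, did not share the excess, with ratios of 0.649 and 0.761. Nid2 (0.851), Col9a2 (0.840), and Col4a6 (0.956) also stood below 1. The part of cell composition in this difference was not tested.

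**Figure D2:**
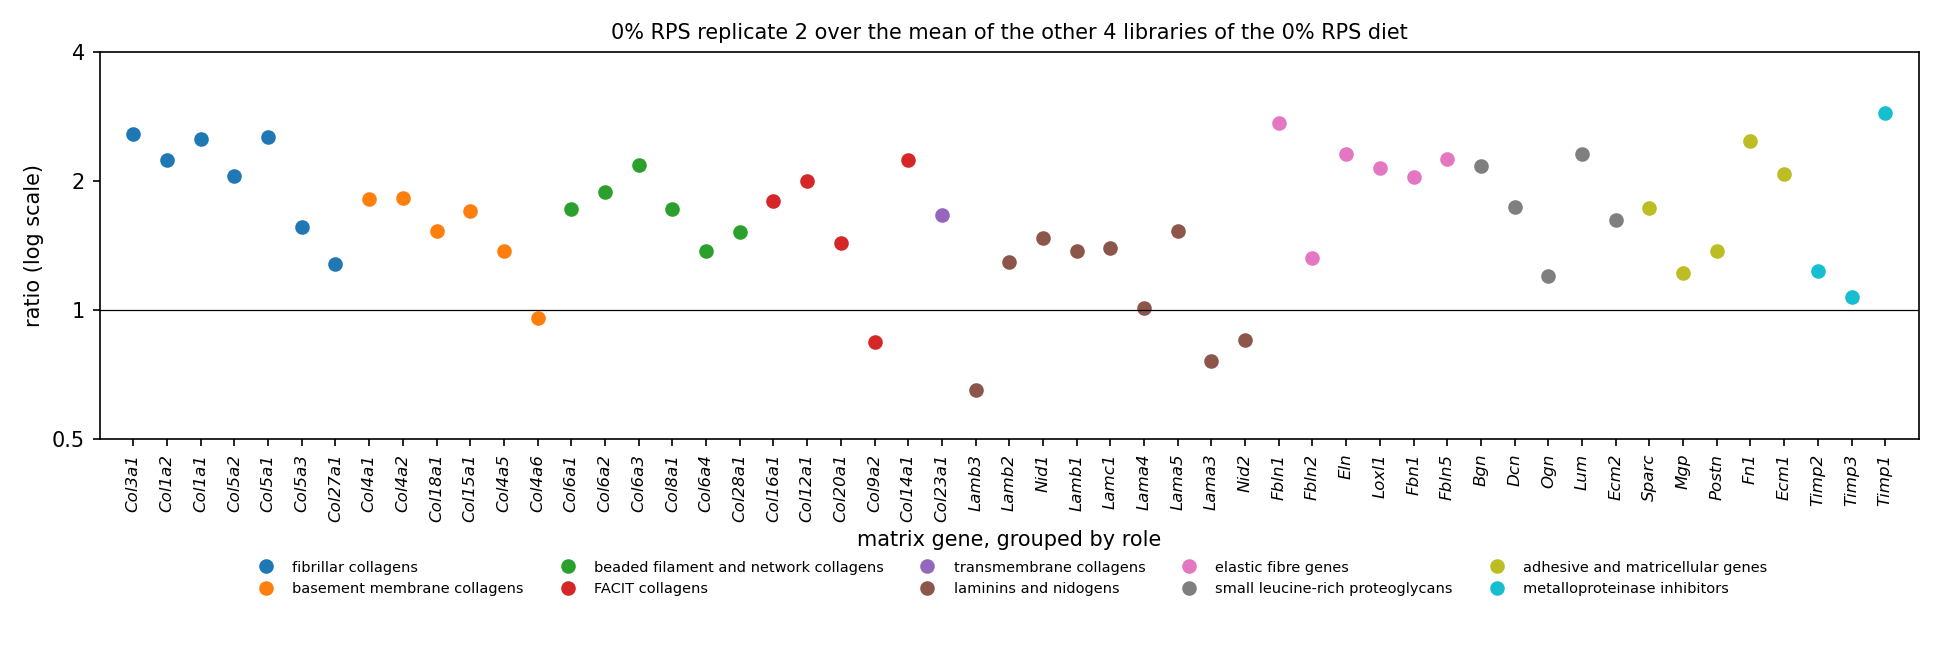
Ratio of the normalised count in 0% RPS replicate 2 to the mean of the other 4 libraries of that diet, on a log scale, for 53 of the 54 matrix genes, grouped and coloured by role. Of the 53 points, 48 lie above 1, and the lowest is Lamb3 at 0.649.

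Before the diets were compared, the members were ranked by level per kilobase of the main transcript. Sparc, a collagen-binding matricellular gene, was highest with 2959 normalised counts per kilobase, followed by Mgp (matrix Gla protein, an inhibitor of calcification) with 2118, Col3a1 with 1494, Postn (periostin) with 1461, and Bgn (biglycan) with 1187. Type III collagen was thus ahead of the type I chains per kilobase, with 879 for Col1a2 and 568 for Col1a1. Among basement membrane genes the order was Lamb3 (960), Col4a1 (798), and Col4a2 (626). The lowest members were Timp1 (32.4), Col4a6 (42.2), and Fbln5 (48.4). The coefficient of variation within a diet (root mean square over the 4 diets, without 0% RPS replicate 2) ran from 10.9% for Col28a1 to 31.6% for Timp1.

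The question of the first comparison was whether any matrix gene changed when RPS was added. All 3 starch diets were compared with the same 0% RPS libraries, so these comparisons share their control. The threshold was an adjusted p (over all genes) of up to 0.05 together with at least a 1.5-fold difference in either direction. At 2% RPS no member passed in DESeq2 or edgeR (0.0239% of all tested genes passed), and 1 member had an unadjusted p under 0.05 (8.7% of genes). At 5% RPS no member passed in either tool (0.438% of genes), and 13 had an unadjusted p under 0.05 (16.6% of genes). At 10% RPS 2 members, Col23a1 and Ecm2, fell (0.917% of genes passed, 0.381% as lower), and 12 had an unadjusted p under 0.05 (18.8% of genes). In edgeR only Col23a1 passed at 10% RPS. Fewer cells of a type and less RNA per cell cannot be told apart in whole tissue.

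When 0% RPS replicate 2 was set aside, the same counts were 0 at 2% RPS (0.0398% of genes), 0 at 5% RPS (0.844%), and 2 at 10% RPS (1.63%), with the same 2 genes. The members with an unadjusted p under 0.05 then numbered 0, 4, and 6 (10.3, 18.2, and 21.8% of genes).

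Across all members the direction leaned to lower values in each starch diet, and at 2% and 10% RPS this lean rested largely on 1 control library. With all 20 libraries, 49 of 54 members had a negative log2 fold change at 2% RPS, 50 at 5% RPS, and 49 at 10% RPS, where 52.3, 52.5, and 49.9% of all genes did. The median log2 fold change of the members was −0.18, −0.27, and −0.19, against −0.01, −0.01, and 0.00 for all genes. With TMM factors the medians were −0.19, −0.27, and −0.19, and no role group changed sign. After removal of 0% RPS replicate 2, 25, 44, and 26 members were negative and the medians were 0.00, −0.10, and 0.01. These are 46.3, 81.5, and 48.1% of members, against 49.4, 51.6, and 48.9% of all genes. The lean at 5% RPS therefore remained in part, while at 2% and 10% RPS the members were divided nearly evenly.

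The intervals show what size of change these data leave room for. With all libraries, the 95% interval lay inside a 1.5-fold change either way for 31 members at 2% RPS, 21 at 5% RPS, and 27 at 10% RPS (57.4, 38.9, and 50% of members, against 87.3, 84.1, and 82.8% of genes). The numbers rose without 0% RPS replicate 2 to 49, 44, and 39 members (90.7, 81.5, and 72.2%, against 87, 84.5, and 82.4% of genes). With that library set aside, a change beyond 1.5-fold was outside the interval for most matrix genes. Leaving out the control that stood apart also reduces the spread of the members. At 10% RPS the 39 intervals were the most in the 20 fits that left out 1 library (19 to 39). At 5% and 10% RPS the share of members stayed below that of all genes in both settings.

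**Figure D3:**
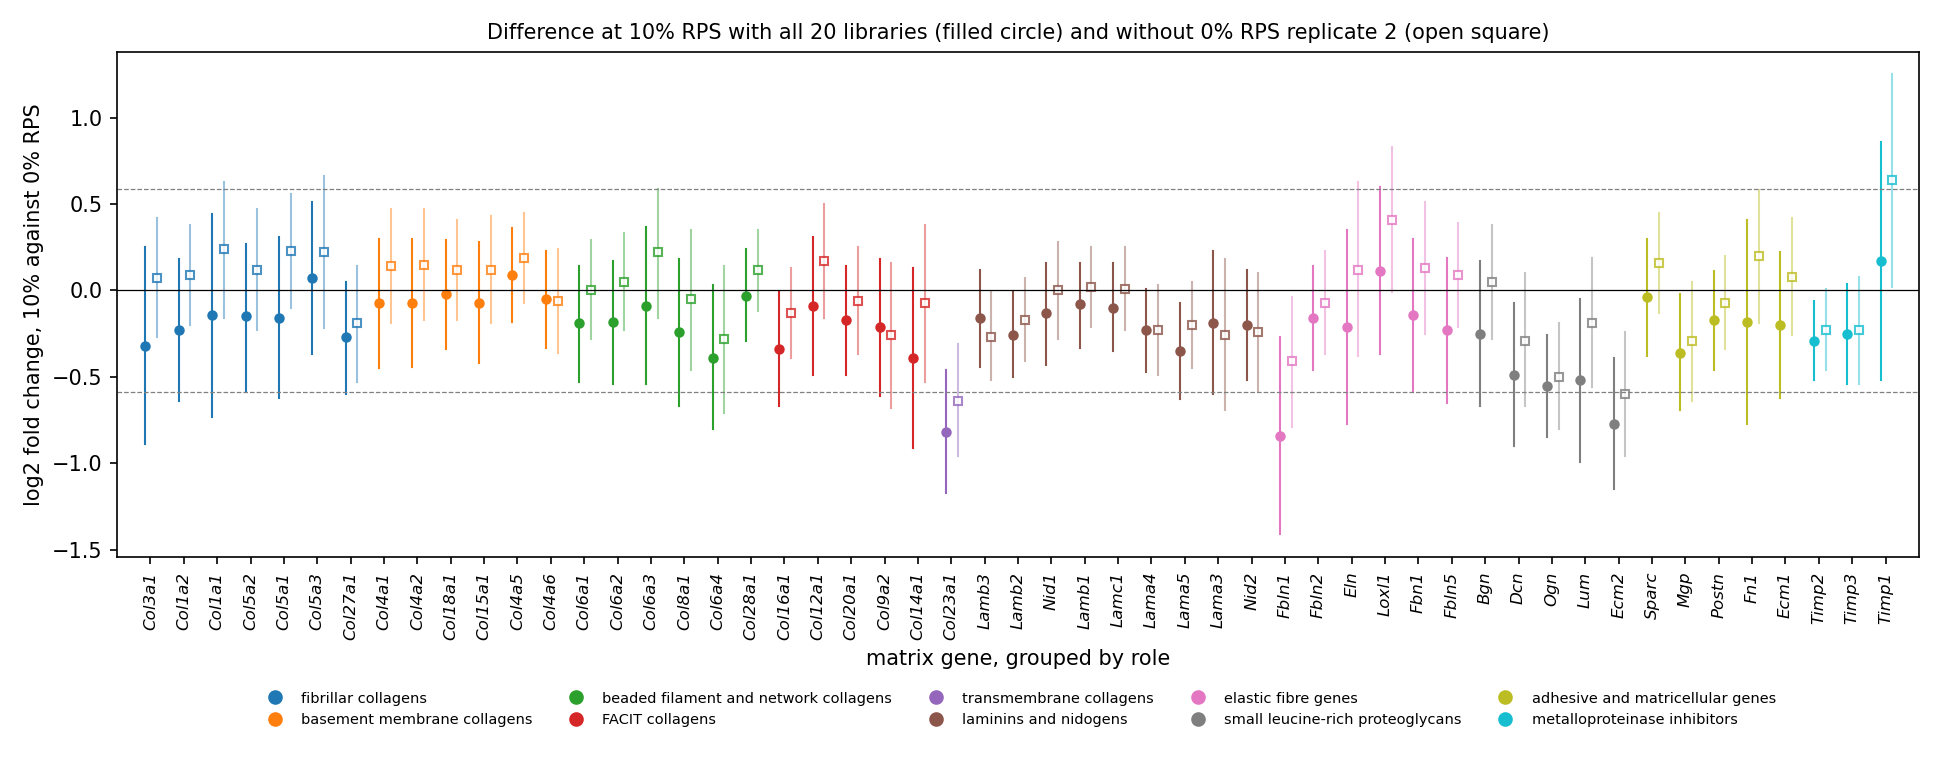
Log2 fold change at 10% against 0% RPS with 95% intervals for 53 of the 54 matrix genes, grouped and coloured by role, from all 20 libraries (filled circles) and without 0% RPS replicate 2 (open squares). Dashed lines mark a 1.5-fold change. Most squares lie nearer 0 than their circles, while Col23a1 (−0.82 and −0.64) and Ecm2 (−0.77 and −0.60) stay below the lower line.

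Col23a1 encodes type XXIII collagen, a transmembrane collagen that can be shed from the cell surface. The gene (ENSMUSG00000063564) lies on the plus strand of chromosome 11, 51180566 to 51474745 (GRCm39). It held 1000, 1497, 783, 863, and 967 normalised counts in the 0% RPS libraries and 929, 736, 812, 765, and 647 at 2% RPS. It held 644, 600, 782, 617, and 839 at 5% RPS and 779, 697, 446, 563, and 416 at 10% RPS. Every 10% RPS library was below every control library, also when replicate 2 is set aside, although the gap between 779 and 783 was narrow. Col23a1 and Ogn were the 2 members that were lower at 10% RPS with no overlap of libraries, which held for 1.18% of genes (2.61% without replicate 2).

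The mean of Col23a1 fell from 1022 ± 279 to 580 ± 157 (SD, n = 5) at 10% RPS, which is −0.82 ± 0.18 (SE) on the log2 scale or 1.76-fold (adjusted p = 0.00139, edgeR 0.0347). At 2% RPS the log2 fold change was −0.39 (adjusted p = 0.512) and at 5% RPS −0.55 (adjusted p = 0.0800), neither of which passed. Without 0% RPS replicate 2 the control mean was 903 ± 99.6 (n = 4) and the log2 fold change at 10% RPS was −0.64 ± 0.16 (adjusted p = 0.00477, edgeR 0.0346). With the smooth muscle level as a covariate it was −0.68 with all libraries (adjusted p = 0.000555) and −0.62 without replicate 2 (adjusted p = 0.00132). The call was kept when each library was left out in turn, with adjusted p from 0.000151 to 0.0151. It was lost (−0.67, adjusted p = 0.0541) without the 3 libraries numbered apart from the rest, which left 3 libraries at 10% RPS.

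Ecm2 encodes a leucine-rich repeat protein of the matrix. The gene (ENSMUSG00000043631) lies on the plus strand of chromosome 13, 49658236 to 49687964. It held 388, 541, 251, 344, and 356 normalised counts at 0% RPS, 327, 268, 364, 353, and 200 at 2% RPS, and 302, 252, 330, 219, and 239 at 5% RPS. At 10% RPS it held 227, 283, 178, 224, and 187, of which 1 library (283) was above the lowest control (251). The groups thus overlapped by 1 library on each side.

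The mean of Ecm2 fell from 376 ± 106 to 220 ± 41.5 (SD, n = 5), or by 0.77 ± 0.20 (SE) on the log2 scale (adjusted p = 0.00665). In edgeR it did not pass (adjusted p = 0.0560). Without 0% RPS replicate 2 the log2 fold change was −0.60 ± 0.18 (adjusted p = 0.0229, edgeR 0.0631), just past 1.5-fold (1.52-fold). The call was kept in all 20 fits that left out 1 library (adjusted p 0.000612 to 0.0440) and lost without the 3 libraries numbered apart (−0.71, adjusted p = 0.0579). With the smooth muscle covariate the log2 fold change was −0.61 (adjusted p = 0.00821). With this covariate and without replicate 2 the fold was under the threshold (−0.57, adjusted p = 0.0135).

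Ogn encodes osteoglycin, a small leucine-rich proteoglycan also called mimecan, and lies 73384 bases beyond Ecm2 on the same strand (ENSMUSG00000021390, chromosome 13, 49761349 to 49780412). It shares exon bases with Cenpp on the other strand, and reads of the pair may not have been separated. Its levels were 2936, 3577, 2583, 2718, and 3670 normalised counts at 0% RPS and 3101, 2711, 3030, 2854, and 1660 at 2% RPS. They were 2404, 2292, 2648, 1732, and 2062 at 5% RPS and 2312, 2240, 1927, 2195, and 1871 at 10% RPS, all 5 of which were below the lowest control. The log2 fold change at 10% RPS was −0.55 ± 0.15 (adjusted p = 0.0128, edgeR 0.0659), which is 1.47-fold and under the fold threshold. Unlike most members, Ogn hardly moved without 0% RPS replicate 2 (−0.50 ± 0.16, adjusted p = 0.0274). With the smooth muscle covariate it was at −0.45 (adjusted p = 0.00644), and at −0.47 without replicate 2 (adjusted p = 0.00309), both under the fold threshold.

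Since RPS was fed at graded levels, a slope on the percentage of RPS was fitted without a fold threshold. Col23a1, Ecm2, Ogn, and Fbln1 passed, all downward (4 of 54 members, 4.29% of genes, 1.89% as lower). The slopes per percentage point of RPS were −0.075 ± 0.017 for Col23a1 (adjusted p = 0.00219), −0.072 ± 0.018 for Ecm2 (adjusted p = 0.00546), and −0.054 ± 0.014 for Ogn (adjusted p = 0.0104) on the log2 scale. In edgeR Col23a1 (adjusted p = 0.0378) and Ecm2 (0.0427) passed and Ogn did not (0.0506). The slopes of Col23a1 (−0.060), Ecm2 (−0.059), and Ogn (−0.049) still passed without 0% RPS replicate 2 (3 members, 6.43% of genes). Ogn missed the threshold when 10% RPS replicate 5 was left out (adjusted p = 0.0540). Without the 3 libraries numbered apart, the slopes of Col23a1 (−0.068, adjusted p = 0.0318), Ecm2 (−0.073, adjusted p = 0.0193), and Ogn (−0.059, adjusted p = 0.00549) passed.

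Fbln1 encodes fibulin-1, a secreted glycoprotein of basement membranes and elastic fibres. It held 1919, 5013, 1317, 2266, and 1878 normalised counts at 0% RPS, 2458, 1799, 2087, 2023, and 1193 at 2% RPS, and 1776, 1282, 2219, 1267, and 1510 at 5% RPS. At 10% RPS it held 1675, 1241, 1346, 1362, and 1311, with 3 of these 5 libraries above the lowest control (1317). Its slope was −0.079 ± 0.024 (adjusted p = 0.0354, edgeR 0.0996). Replicate 2 carried much of this, since without it the slope was −0.047 ± 0.017 (adjusted p = 0.0653) and the log2 fold change at 10% RPS went from −0.84 to −0.41 (adjusted p = 0.0702 and 0.173). The slope passed in 11 of the 20 fits that left out 1 library and with the smooth muscle covariate, with replicate 2 (−0.044, adjusted p = 0.0132) and without it (−0.038, adjusted p = 0.00384). It did not pass without the 3 libraries numbered apart (−0.084, adjusted p = 0.140).

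**Figure D4:**
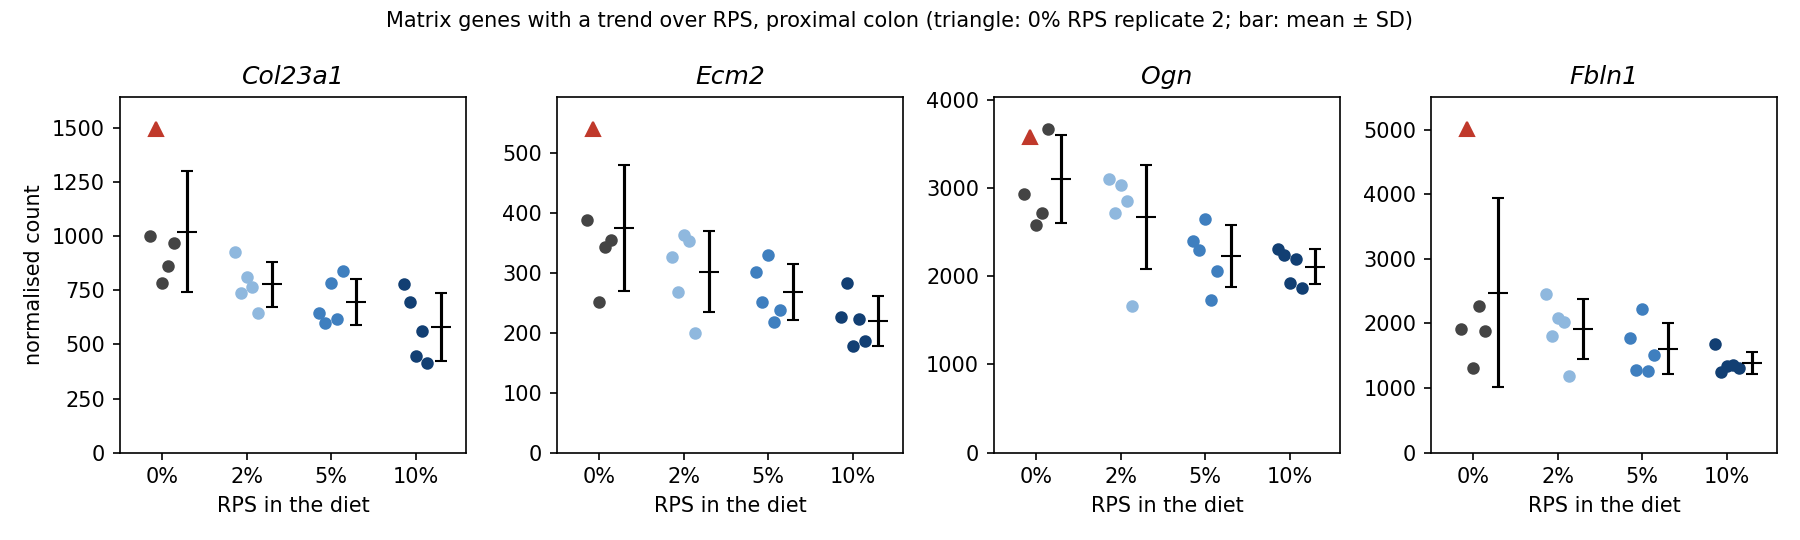
Normalised counts of Col23a1, Ecm2, Ogn, and Fbln1 in each of the 20 libraries by percentage of RPS, with mean ± SD (n = 5), and 0% RPS replicate 2 as a triangle. Col23a1 goes from 783 to 1497 at 0% RPS to 416 to 779 at 10% RPS, and for Fbln1 the triangle (5013) lies far above the other 19 libraries.

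In the test over all 4 diets, Col23a1 (adjusted p = 0.00971), Ogn (0.0343), and Ecm2 (0.0440) differed (likelihood ratio test of DESeq2), which is 3 of 54 members and 2.38% of genes. No member passed in edgeR, where Col23a1 had the lowest adjusted p of these 3 genes (0.166), and 5 members had an unadjusted p under 0.05 in DESeq2 (14.3% of genes). Without 0% RPS replicate 2 only Col23a1 passed (adjusted p = 0.0317, 4.42% of genes), with 5 members at an unadjusted p under 0.05 (16.9% of genes). None of the 3 comparisons between starch diets called a member in DESeq2 or edgeR (0, 0.0557, and 0.00796% of genes at 5 against 2%, 10 against 2%, and 10 against 5% RPS), also without that library (0, 0.119, and 0.00796% of genes). The members with an unadjusted p under 0.05 numbered 0, 6, and 1 (2.86, 9, and 4.11% of genes), and 0, 7, and 1 without it (3.29, 10.5, and 4.88% of genes). Col23a1 differed by −0.42 on the log2 scale between 10 and 2% RPS, with a 95% interval from −0.78 to −0.06.

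The windows upstream of the 3 genes that differed over the 4 diets are shown because these members moved in the same direction and 2 of them are near neighbours. The sequences are the 250 bases before the RefSeq start on GRCm38.p6, plus strand, at chr11:51289670-51289919 for Col23a1, chr13:49504560-49504809 for Ecm2, and chr13:49607765-49608014 for Ogn. Capitals mark letters found on either strand of a TATA box (TATAAA), a GC box (GGGCGG, which reads CCGCCC on the other strand), a TEAD motif (GGAATG), or a CArG box, the serum response factor motif of smooth muscle genes.
Col23a1: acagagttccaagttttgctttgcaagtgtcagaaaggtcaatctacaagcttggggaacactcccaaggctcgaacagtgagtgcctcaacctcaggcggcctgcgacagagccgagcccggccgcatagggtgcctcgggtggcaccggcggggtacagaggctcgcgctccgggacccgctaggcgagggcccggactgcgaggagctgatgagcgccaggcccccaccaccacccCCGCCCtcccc
Ecm2: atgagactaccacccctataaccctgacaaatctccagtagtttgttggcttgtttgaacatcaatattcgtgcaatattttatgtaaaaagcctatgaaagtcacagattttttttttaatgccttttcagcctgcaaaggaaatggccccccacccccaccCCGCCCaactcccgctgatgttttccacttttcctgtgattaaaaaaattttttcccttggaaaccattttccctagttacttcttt
Ogn: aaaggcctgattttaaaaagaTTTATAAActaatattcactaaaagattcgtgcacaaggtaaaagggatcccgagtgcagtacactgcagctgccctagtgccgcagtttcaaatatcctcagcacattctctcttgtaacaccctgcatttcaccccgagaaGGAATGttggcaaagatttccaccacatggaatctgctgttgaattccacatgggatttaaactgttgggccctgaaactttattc
Col23a1 and Ecm2 each held 1 GC box, 11 to 6 and 87 to 82 bases before the start, and 32.7% of the 32851 windows of this length hold one. Ogn held overlapping TATA boxes on the 2 strands, 229 to 224 and 227 to 222 bases before the start (12.4% of windows). It also held 1 TEAD motif 86 to 81 bases before the start (12.6% of windows). The CArG box (1.47% of windows) was in none of the 3. The windows differed in base composition, with a GC content of 66.0% for Col23a1, 40.0% for Ecm2, and 42.0% for Ogn, where the median of all windows was 52.4%. A match of letters is a description and not a shown site.

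The other small leucine-rich proteoglycans had negative values that did not pass. Dcn (decorin) held 3390 to 8241 normalised counts at 0% RPS, 2676 to 5727 at 2% RPS, 2540 to 4523 at 5% RPS, and 3232 to 4470 at 10% RPS. Its log2 fold change was −0.49 at 5% RPS (adjusted p = 0.207) and −0.49 at 10% RPS (adjusted p = 0.170), and −0.29 without 0% RPS replicate 2 in both. Bgn, a partner of decorin on collagen fibres, stood at −0.25 at 10% RPS with all libraries and at 0.05 without that library. Lum (lumican) likewise went from −0.52 to −0.19. Over all 5 members of the role, with Ecm2 and Ogn included, the median at 10% RPS was −0.52. Without replicate 2 it was −0.29, with 4 of 5 members negative.

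The values of the fibrillar collagens depended on 1 control library. Col3a1 held 8777, 19719, 5664, 8715, and 7527 normalised counts at 0% RPS and 9511, 7720, 7026, 6266, and 9854 at 10% RPS, so that 4 control libraries lay in or below the range of the 10% RPS libraries. Its log2 fold change was −0.32 (95% interval −0.89 to 0.25) with all libraries and 0.07 (−0.27 to 0.42) without replicate 2. Col1a2 followed the same course, from −0.23 (−0.64 to 0.18) to 0.09 (−0.20 to 0.38). Of the 7 fibrillar collagens 6 were negative with all libraries and 1, Col27a1, without replicate 2. No fibrillar collagen was called in any DESeq2 comparison, with or without that library.

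Col6a1 and Col6a2, which form the beaded filaments of type VI collagen and are neighbours on chromosome 10, had log2 fold changes of −0.19 and −0.18 at 10% RPS, and 0.00 and 0.05 without 0% RPS replicate 2. Col6a4 was the lowest of its group (−0.39, adjusted p = 0.296, and −0.28 without the library). The fibril-associated collagens Col16a1 (−0.34, adjusted p = 0.237), Col14a1 (−0.39, adjusted p = 0.419), and Col12a1 (−0.09, adjusted p = 0.837) did not pass. Without replicate 2 their values were −0.13, −0.07, and 0.17. All of these differences were smaller than 1.5-fold.

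Basement membrane collagens were close to the control at 10% RPS. Col4a1 and Col4a2, the paired chains of the main type IV collagen, are transcribed head to head from overlapping starts on chromosome 8. Both stood at −0.07 with all libraries, and at 0.14 and 0.15 without 0% RPS replicate 2. Col4a5, on the X chromosome, had a tight control group, with 349, 356, 351, and 364 normalised counts and 485 in replicate 2. It held 341, 326, 297, 293, and 322 at 5% RPS, all below the lowest control, while groups that were lower without overlap occurred for 0.955% of genes (2.3% without replicate 2). The log2 fold change was −0.27 ± 0.14 (adjusted p = 0.301), and −0.17 ± 0.13 without replicate 2 (adjusted p = 0.518), and neither passed. At 10% RPS Col4a5 ran from 318 to 530 and overlapped the controls (0.09 ± 0.14, and 0.19 ± 0.13 without replicate 2).

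None of the 10 laminins and nidogens passed at any starch level, with or without 0% RPS replicate 2. Lamb2 was at −0.31 ± 0.12 at 5% RPS (adjusted p = 0.176) and −0.26 ± 0.12 at 10% RPS (adjusted p = 0.233). Without replicate 2 it was at −0.23 and −0.17 (adjusted p = 0.301 and 0.410). Lama5, an epithelial and vascular chain, was at −0.30 and −0.35 ± 0.14 (adjusted p = 0.261 and 0.146), and without that library nearer 0, at −0.16 and −0.20 ± 0.13 (adjusted p = 0.522 and 0.345). Lamb3 gave −0.24 at 5% RPS and, unlike Col3a1, moved away from 0 without 0% RPS replicate 2 (−0.34 ± 0.13, adjusted p = 0.105). At 10% RPS Lamb3 was at −0.16 and Lama3 at −0.19, and without replicate 2 at −0.27 and −0.26. Lama3 varied between libraries, from 873 to 2107 normalised counts.

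Among elastic fibre genes other than Fbln1, Fbln2 stood at −0.16 at 10% RPS and −0.07 without 0% RPS replicate 2. Eln changed sign between the settings (−0.21 and 0.12), as did Fbn1 (fibrillin-1, −0.14 and 0.13). Loxl1, which encodes a crosslinking enzyme of elastin, was at 0.11 and 0.41 ± 0.21 (adjusted p = 0.835 and 0.237). Of the adhesive and matricellular genes, Sparc was at −0.04 and 0.16, Mgp at −0.36 ± 0.17 and −0.29 ± 0.18 (adjusted p = 0.221 and 0.322), and Fn1 (fibronectin) at −0.18 and 0.20.

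The inhibitors of metalloproteinases were measured at very different levels. Timp2 (−0.29 ± 0.12, adjusted p = 0.140) and Timp3 (−0.25 ± 0.15, adjusted p = 0.336) hardly moved without 0% RPS replicate 2 (−0.23 for each). Timp1 was low throughout, with 35.1, 60.4, 11.8, 20.7, and 16.6 normalised counts at 0% RPS and 28.2, 34.4, 30.2, 24.2, and 44.5 at 10% RPS. Its log2 fold change was 0.17 with all libraries and 0.64 ± 0.31 without replicate 2 (adjusted p = 0.205), the largest positive value of any member in that setting at 10% RPS. The groups overlapped in both settings.

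Cell markers also moved with the diets beside these results. The summed epithelium markers stood at 912880 to 1061067 normalised counts at 0% RPS and 1110294 to 1590492 at 10% RPS. These ranges did not overlap, and the share of genes higher without overlap was not determined. None of the 10 markers passed at 10% RPS with all libraries, and 1 (Muc2) passed without 0% RPS replicate 2. Muc2, a mucin gene, was a large part of this sum, with a mean of 418309 at 0% RPS and 586489 at 10% RPS. The median log2 fold change of the 10 markers was 0.16, and 3 of them were negative. Summed smooth muscle markers were 136651 to 300213 at 0% RPS and 141657 to 235267 at 10% RPS, and fibroblast markers 13981 to 18997 and 15012 to 17329. The median log2 fold change of the smooth muscle markers at 10% RPS was −0.22, and −0.03 without replicate 2, with no call. The 4 adipocyte markers had a median of −1.72 at 5% RPS and 1.12 at 10% RPS, without a call. Their sum ran from 768 to 4182 at 0% RPS and from 1662 to 12848 at 10% RPS. At 10% RPS the median was −0.19 for endothelial markers (7 of 8 negative) and −0.10 for macrophage markers (7 of 7 negative). Without replicate 2 these medians were −0.15 and 0.12, and no marker of either list was called. Single markers of other cells were called at 10% RPS beside the matrix genes. The fibroblast marker Scara5 rose, with a log2 fold change of 0.81 ± 0.18 (adjusted p = 0.000895, edgeR 0.0308), and 0.88 without replicate 2 (adjusted p = 0.000319), while 6 of the 8 fibroblast markers had negative values. Gfap of enteric glia was at 0.61 ± 0.16 (adjusted p = 0.00797, edgeR 0.0569) and Upk1b, the mesothelial marker, at 0.62 ± 0.20 (adjusted p = 0.0482, edgeR 0.111), and both were also called without replicate 2 (0.69 for each). Gfap went against its own list, where 7 of the 8 markers of enteric glia and neurons were negative. The median of that list was −0.23, and −0.24 without replicate 2. The 6 distal Hox genes had a median of −0.84, and −0.39 without that library. Of these Hoxa9 was called with it (−1.83 ± 0.52, adjusted p = 0.0186, edgeR 0.0740) and not without it (−0.70 ± 0.27, adjusted p = 0.0921). Cd79a, a B cell marker, was called only without replicate 2 (1.35 ± 0.45, adjusted p = 0.0416, edgeR 0.113). Of the 3 lymphocyte and plasma cell markers measured, 2 were negative with all libraries. Their median was −0.04, and 0.68 without replicate 2, the library in which this list stood highest. Beyond the smooth muscle covariate given with each gene, the part of these cells and of the epithelium in the values of Col23a1, Ecm2, and Ogn was not tested.

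Other genes of the matrix pathway were read from the same fits. None of 18 measured genes of collagen processing (26 listed) passed at any starch level, and none of 18 genes of TGF-beta signalling (20 listed) did. Of 23 other matrix proteins (29 listed), Aspn fell at 10% RPS. Aspn encodes asporin, a proteoglycan whose gene lies between Ecm2 and Ogn. Its mean was 1555 ± 557 at 0% RPS and 904 ± 124 at 10% RPS (SD, n = 5), with a difference of −0.78 ± 0.23 on the log2 scale (adjusted p = 0.0231, edgeR 0.0898). It was not called without 0% RPS replicate 2 (−0.54 ± 0.21, adjusted p = 0.0822), which held 2500 normalised counts.

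Of 14 matrix proteases (25 listed), Adamts15, which encodes a protease of proteoglycans, rose from 228 ± 46.4 to 371 ± 44.2 normalised counts at 10% RPS. The log2 fold change was 0.70 ± 0.21 (adjusted p = 0.0256, edgeR 0.0879), and 0.68 without 0% RPS replicate 2 (adjusted p = 0.0358). Of 23 matrix receptors (26 listed), none passed with all libraries. Without replicate 2, Itga5, the alpha chain of the fibronectin receptor, passed at 10% RPS (0.61 ± 0.18, adjusted p = 0.0195, edgeR 0.0693), whereas with it the value was 0.42 (adjusted p = 0.230). In the trend the lists gave 2 higher (Adamts15 and Mmp28) and 5 lower genes (Mmp11, Bcam, Ltbp4, Aspn, and Mfap2) with all libraries, or 7.29% of 96 genes against 4.29% of all genes. None of these 7 passed with edgeR (adjusted p = 0.0637 to 0.111). Without that library they gave 3 higher (Mmp28, Cd44, and Itga5) and 2 lower (Aspn and Mfap2), or 5.21% against 6.43% of all genes, and only Mmp28 of these 5 passed with edgeR (adjusted p = 0.0254).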

How the data were processed

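RNA of the proximal colon of 20 mice was sequenced by the authors (stranded mRNA libraries, read length 50 bases, one end). The authors trimmed the reads, mapped them to GRCm39, and counted them in CLC Genomics Workbench. The deposited values are raw counts per Ensembl gene, not normalised or pooled. The annotation, the use of strand, and the treatment of reads with several matches are not given in the sources used here, and 30 members share exon bases with another gene.

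Diets were taken from the labels. Each library carries its own number in the labels and was kept as 1 replicate. The members and gene lists were chosen with earlier results of these data known. Symbols and positions are from GENCODE release M39 (12682 of 12701 identifiers matched), and promoter sequences from RefSeq (39 members matched).

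Following the study, counts were tested with DESeq2 1.42.0 in R 4.3.3, with diet as the only term over all 20 libraries and all genes. Genes were called at an adjusted p of 0.05 and 1.5-fold, a slope on the percentage of RPS and a likelihood ratio test over the 4 diets at an adjusted p of 0.05. Adjusted p values are from DESeq2 unless edgeR 4.0.16 (quasi-likelihood test, 12366 genes) is named. Total counts were 20581013 to 35083751 per library, and a floor of 3 counts equals 0.0855 to 0.146 CPM per library, which covers counting error only.

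Named were members called in any comparison, past the threshold in the trend or over the 4 diets, the 2 members of each role highest per kilobase, and the member of each role with the largest change at 10% RPS among those with a mean of at least 10. Other members and genes in the text were chosen after their values were seen. The single values of 1 member are not reported here, although it is counted among the 54. Alternatives were edgeR, TMM size factors, genes with at least 10 counts in 5 libraries, no independent filtering, no Cook filtering, no fold threshold, only the 2 diets compared, a smooth muscle covariate, omission of the 3 libraries numbered apart from the rest in their labels (2% RPS replicate 5 and 10% RPS replicates 4 and 5), and omission of each library. The fits were tested on simulated data. Python 3.11.15 was used for tables (pandas 2.3.3) and plots (matplotlib 3.10.9).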

Additional observations from a re-analysis of the deposited data

Results flagged for a closer look

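Of 100 groups of 5 libraries (25 named members in 4 diets), 11 held a library whose gap to the nearest value, divided by the range, was above Dixon's critical value of 0.71. Chance gives about 1 in 20 groups, and members are not independent of each other. In 0% RPS replicate 2 there were 5, namely Col3a1 with 19719 normalised counts (others 5664 to 8777), Col1a2 with 9659 (3297 to 5108), Fbln1 with 5013 (1317 to 2266), Col12a1 with 1852 (758 to 1031), and Col4a5 with 485 (349 to 364).

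In 2% RPS replicate 5 the flagged values were low. They were Sparc with 5116 normalised counts (others 6863 to 7374), Col1a2 with 3420 (4934 to 5205), Bgn with 2204 (2899 to 3089), and Ogn with 1660 (2711 to 3101). The members took 0.28% of the counts of that library, the lowest share of the 20, and its smooth muscle markers summed to 124888. Fbln1 was high in 10% RPS replicate 1, with 1675 (others 1241 to 1362), and Lama5 in 5% RPS replicate 5, with 1565 (1186 to 1263).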

How the results depend on the processing

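The number of matrix genes changed at 10% RPS was 2 with all libraries, 1 with edgeR (Col23a1), 0 without the 3 libraries numbered apart, and 2 to 5 when each library was left out. The trend gave 4 genes, 2 with edgeR and 2 to 5 with each library left out (2 without 10% RPS replicate 5). The likelihood ratio test over the 4 diets gave 3 genes, 0 with edgeR, 1 without the 3 libraries numbered apart (Ogn), and 1 to 4 with each library left out, among them 1 without 0% RPS replicates 2, 4, or 5, 2% replicate 2, 5% replicates 2 or 5, or 10% replicates 3 or 5. At 5% RPS the range was 0 to 3, and the 3 calls came without 0% RPS replicate 3 (Col23a1, Ecm1, and Ecm2). Without that library Dcn, Fbln1, and Ogn were also called at 10% RPS. The cause was not tested.

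Intervals inside 1.5-fold at 10% RPS numbered 27, 46 with the smooth muscle covariate, and 19 to 39 with each library left out (19 without 10% RPS replicate 1, 39 without 0% RPS replicate 2). Settings added after the data were seen left out 0% RPS replicate 2 as well. With edgeR they gave 1 gene at 10% RPS, 2 in the trend, and 0 over the 4 diets. With the smooth muscle covariate they gave 1 gene at 10% RPS (Col23a1) and 42 intervals. The calls of Col23a1 and Ecm2 at 10% RPS held in all 20 fits without 1 library. Of 2975 values of the 25 named genes under the alternatives, 129 changed sign, none of them a called value. The members' means of at least 30.4 normalised counts are well above the detection floor, so the spread between libraries sets the limit. No paired analysis was possible because no replicate number in the labels links libraries of different diets.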
